A study of Mus musculus with 30 samples.

Results

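The 10 genes described here are the ligands Lif, Osm, Cntf and Clcf1, the receptor chains Il6st (which encodes gp130), Osmr and Lifr, and the signalling genes Jak2, Stat3 and Socs3. They were chosen by gene symbol from the 42384 genes of the count tables, and all 10 were found. In neural retina of mice lacking both Abca4 and Rdh8, 6 of them (Lif, Clcf1, Il6st, Osmr, Stat3 and Socs3) were higher 24 h after bright light in each of 2 experiments, by log2 fold changes of 1.40 to 4.99. The same 6 genes were lower than with light alone when either of 2 drug mixtures was given first, and between 0 and 5 of them were lower after single drugs. Lifr and Jak2 were called in no comparison by edgeR, and Osm was at or near 0.

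Cytokines of this family act through receptors that share gp130: LIF engages gp130 with the LIF receptor chain, oncostatin M engages gp130 with its own receptor chain, and CNTF and CLCF1 additionally need a CNTF receptor subunit. Janus kinases bound to these chains phosphorylate STAT3, which enters the nucleus and activates, among other genes, Socs3, whose product binds gp130 and the kinases and damps the signal. In injured retina, LIF made by Müller glia is known to signal to photoreceptors and to other Müller cells, and CNTF is a well-known survival factor for photoreceptors.

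RNA of 30 libraries was sequenced, 3 in each of 10 groups, with a strand-specific poly(A) kit. Every group, controls included, was Abca4-/-Rdh8-/- on a C57BL/6J background, males and females of 4 to 6 weeks, housed under a 12 h light cycle of at most 10 lux, and the labels used here describe no wild type and no drug group without light. Bright light was 10000 lux for 30 min, injections into the peritoneum came 30 min before it, and retinas were taken 24 h after it. The mixture experiment had a no-light group and a light group, both given the vehicle DMSO, and 2 mixtures given before light. The mixture called BMT joins bromocriptine (BRM) and metoprolol (MTP) with tamsulosin (TAM), and the mixture called MDB has doxazosin (DOX) in the place of TAM. The single-drug experiment had its own DMSO no-light and light groups and BRM, MTP, TAM or DOX before light. Bromocriptine is a dopamine receptor agonist, metoprolol a beta-adrenergic blocker, and tamsulosin and doxazosin are alpha-adrenergic blockers. The labels do not say that the libraries of a group came from separate animals, so p-values measure the spread between these libraries, which may be technical. In RNA of whole tissue, fewer cells of a type and less RNA per cell cannot be told apart.

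Libraries held 18.5 M to 25.8 M counts in the mixture experiment and 12.0 M to 22.2 M in the single-drug experiment. Levels below are CPM, the counts per M counts of a library after TMM scaling, and differences are log2 fold changes ± SE from edgeR's quasi-likelihood test. A gene is called where its p, adjusted over all genes tested by the Benjamini-Hochberg method, is under 0.05. Rod markers were abundant in every library, with 22404 to 77515 CPM summed over 8 genes. Lens fibre genes were present at very uneven levels (5.58 to 2631 CPM summed over 6 genes), and pigment epithelium genes summed to 247 to 534 CPM. The library labelled TAM replicate 2 stood apart from the other TAM libraries for 6 of the 9 genes tested, and results that rest on it are given with and without it.

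Socs3 and Stat3 are on chromosome 11 (GRCm38), at 117966079 to 117970047 and 100885098 to 100939540, both on the minus strand. The stretches before their RefSeq starts (build GRCm38.p6) are shown because both genes moved together in these data and STAT3 binds sites with the letters TTCNNNGAA. Capitals mark a match to those letters, which read the same on both strands. The windows are chr11:117969367-117969616 for Socs3 and chr11:100939541-100939790 for Stat3, each on the minus strand and written 5′ to 3′ up to the base before the start.
Socs3: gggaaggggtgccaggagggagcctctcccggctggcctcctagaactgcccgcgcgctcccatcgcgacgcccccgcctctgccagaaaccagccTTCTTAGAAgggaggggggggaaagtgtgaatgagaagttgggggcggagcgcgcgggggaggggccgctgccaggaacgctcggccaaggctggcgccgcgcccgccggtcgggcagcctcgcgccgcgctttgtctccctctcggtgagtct
Stat3: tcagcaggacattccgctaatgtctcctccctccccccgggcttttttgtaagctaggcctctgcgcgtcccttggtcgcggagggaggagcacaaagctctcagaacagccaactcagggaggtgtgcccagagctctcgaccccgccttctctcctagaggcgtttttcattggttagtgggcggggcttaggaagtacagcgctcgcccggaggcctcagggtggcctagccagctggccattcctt
Over the window from 250 bases before to 50 after the start, the Socs3 window held 1 match, TTCTTAGAA, whose first base lies 154 bases before the RefSeq start. GENCODE places the start of the protein-coding Socs3 transcript 180 bases further downstream, 334 bases from that match, and annotates non-coding Socs3 transcripts across the window. None of the other windows found, which cover 8 of the 10 members in 9 windows, held a match. Of 32851 RefSeq windows of this length, 8.3% held at least 1 match, and a match is a description of letters, not of binding.

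Light raised 2 of the 4 ligands. Lif (ENSMUSG00000034394, chromosome 11, 4257557 to 4272514) was at 0.203, 0.544 and 0.286 CPM in the 3 no-light libraries of the mixture experiment, against 8.96, 6.33 and 6.69 CPM in its light libraries. In the single-drug experiment Lif was at 0.403, 0.325 and 0.158 CPM without light and at 7.49, 11.8 and 9.61 CPM with it. Every light library was above every no-light library in both experiments. The difference was 4.39 ± 0.69 (adjusted p = 0.0015) in the mixture experiment and 4.99 ± 0.97 (adjusted p = 0.00176) in the single-drug experiment.

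Clcf1 (ENSMUSG00000040663, chromosome 19, 4214238 to 4223490), which encodes cardiotrophin-like cytokine, was at 0.965, 1.88 and 0.857 CPM without light and 6.10, 4.58 and 4.99 CPM with light in the mixture experiment. In the single-drug experiment its values were 1.31, 1.49 and 1.16 CPM without light and 3.41, 5.28 and 4.39 CPM with light. The groups did not overlap, and the differences were 2.08 ± 0.30 (adjusted p = 0.000858) and 1.72 ± 0.40 (adjusted p = 0.00618). Between 69.1% and 99.8% of Clcf1's counts in a group were assigned to a retained-intron transcript and not to a protein-coding one, so these levels are mostly not levels of coding mRNA. The protein-coding share was 6.0% without and 22.4% with light in the mixture experiment, and 0.1% and 25.5% in the single-drug experiment. After drugs it lay between 1.0% (MDB) and 16.4% (DOX). These shares rest on low counts and were not tested.

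Cntf (ENSMUSG00000079415, chromosome 19, 12763660 to 12765632) lies wholly inside Zfp91 on the same strand, so its counts cannot be cleanly told apart from Zfp91 reads. It was at 3.66, 10.6 and 3.81 CPM without light and 12.3, 13.7 and 8.18 CPM with light in the mixture experiment, where the groups overlap. In the single-drug experiment it was at 14.7, 2.65 and 4.37 CPM without light and 19.8, 16.7 and 15.8 CPM with light, with no overlap. Neither difference was called: 0.92 ± 0.50 (adjusted p = 0.271) and 1.28 ± 0.66 (adjusted p = 0.182).

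Osm (ENSMUSG00000058755), which lies 16.5 kb from Lif on chromosome 11, had 0 counts in all 6 no-light libraries. A count of 0 allows up to 0.0478 CPM over the mixture experiment's no-light group and 0.047 CPM over that of the single-drug experiment, taken as 3 counts of the group's total. One light library of the mixture experiment had 4 counts, and the light libraries of the single-drug experiment had 1, 1 and 0. Osm was too low to test in either experiment, so no direction is given, and all statements on tested members cover the other 9.

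Among the receptor chains, the 2 that rose were Il6st and Osmr. Il6st (ENSMUSG00000021756, chromosome 13, 112464070 to 112510086), the chain that all these cytokines share, was at 112, 124 and 114 CPM without light and 352, 347 and 362 CPM with light in the mixture experiment. The single-drug experiment gave 137, 118 and 124 CPM without light and 331, 342 and 329 CPM with light. Il6st varied little within groups, and the differences were 1.60 ± 0.13 (adjusted p = 2.44e-05) and 1.40 ± 0.27 (adjusted p = 0.00157).

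Osmr (ENSMUSG00000022146, chromosome 15, 6813577 to 6874969), the chain that binds oncostatin M, was at 14.7, 5.54 and 13.1 CPM without light and 68.0, 73.5 and 151 CPM with light in the mixture experiment. In the single-drug experiment it was at 11.3, 6.64 and 6.17 CPM without light and 128, 132 and 154 CPM with light. The lowest light library was well above the highest no-light library in each experiment, with 1 mixture-experiment light library about as high as those of the other experiment. The differences were 3.13 ± 0.45 (adjusted p = 0.000789) and 4.10 ± 0.67 (adjusted p = 0.000569).

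Lifr (ENSMUSG00000054263, chromosome 15, 7129559 to 7197489), the chain that binds LIF, was not called. Its levels were 106, 80.9 and 108 CPM without light and 112, 110.1 and 114 CPM with light in the mixture experiment, and 110, 102 and 123 CPM against 106, 89.5 and 97.8 CPM in the single-drug experiment. The light libraries lay just above the others in the first experiment and overlapped them in the second. The differences were 0.19 (95% interval -0.06 to 0.44, adjusted p = 0.333) and -0.19 (interval -0.38 to -0.00, adjusted p = 0.138).

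Stat3 (ENSMUSG00000004040), the transcription factor of the pathway, was at 37.7, 55.8 and 47.4 CPM without light and 285, 264 and 269.6 CPM with light in the mixture experiment. In the single-drug experiment its values were 55.3, 45.9 and 40.4 CPM without light and 228, 229 and 227 CPM with light. The differences were 2.54 ± 0.27 (adjusted p = 0.000116) and 2.27 ± 0.40 (adjusted p = 0.000869). Socs3 (ENSMUSG00000053113), the feedback inhibitor, was at 2.34, 3.86 and 2.86 CPM without light and 51.2, 44.2 and 44.6 CPM with light in the mixture experiment. Its single-drug values were 4.23, 3.02 and 3.32 CPM without light and 36.9, 39.6 and 49.5 CPM with light. Both genes had no overlap between groups, and Socs3 differed by 3.95 ± 0.38 (adjusted p = 6.11e-05) and 3.57 ± 0.79 (adjusted p = 0.00428).

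Jak2 (ENSMUSG00000024789, chromosome 19, 29251828 to 29313080), the kinase, held a narrow range of 49.1 to 70.6 CPM over all 30 libraries. Light changed it by -0.05 (interval -0.21 to 0.12, adjusted p = 0.749) in the mixture experiment and 0.07 (interval -0.09 to 0.22, adjusted p = 0.557) in the single-drug experiment. With the ligands, receptors and signalling genes counted together, 6 of 9 tested members were called higher in the mixture experiment, where 7.77% of all genes tested were, and 6 of 9 in the single-drug experiment, where 11.3% were. The members' median difference was 2.08 and 1.72, against medians of 0.01 and 0.02 over all genes. Groups did not overlap, higher with light, for those 6 genes in each experiment. The same held for Lifr in the mixture experiment and Cntf in the single-drug experiment, neither of them called. The share of all genes without overlap was not computed, so non-overlap here and below only describes these libraries.

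**Figure D1:**
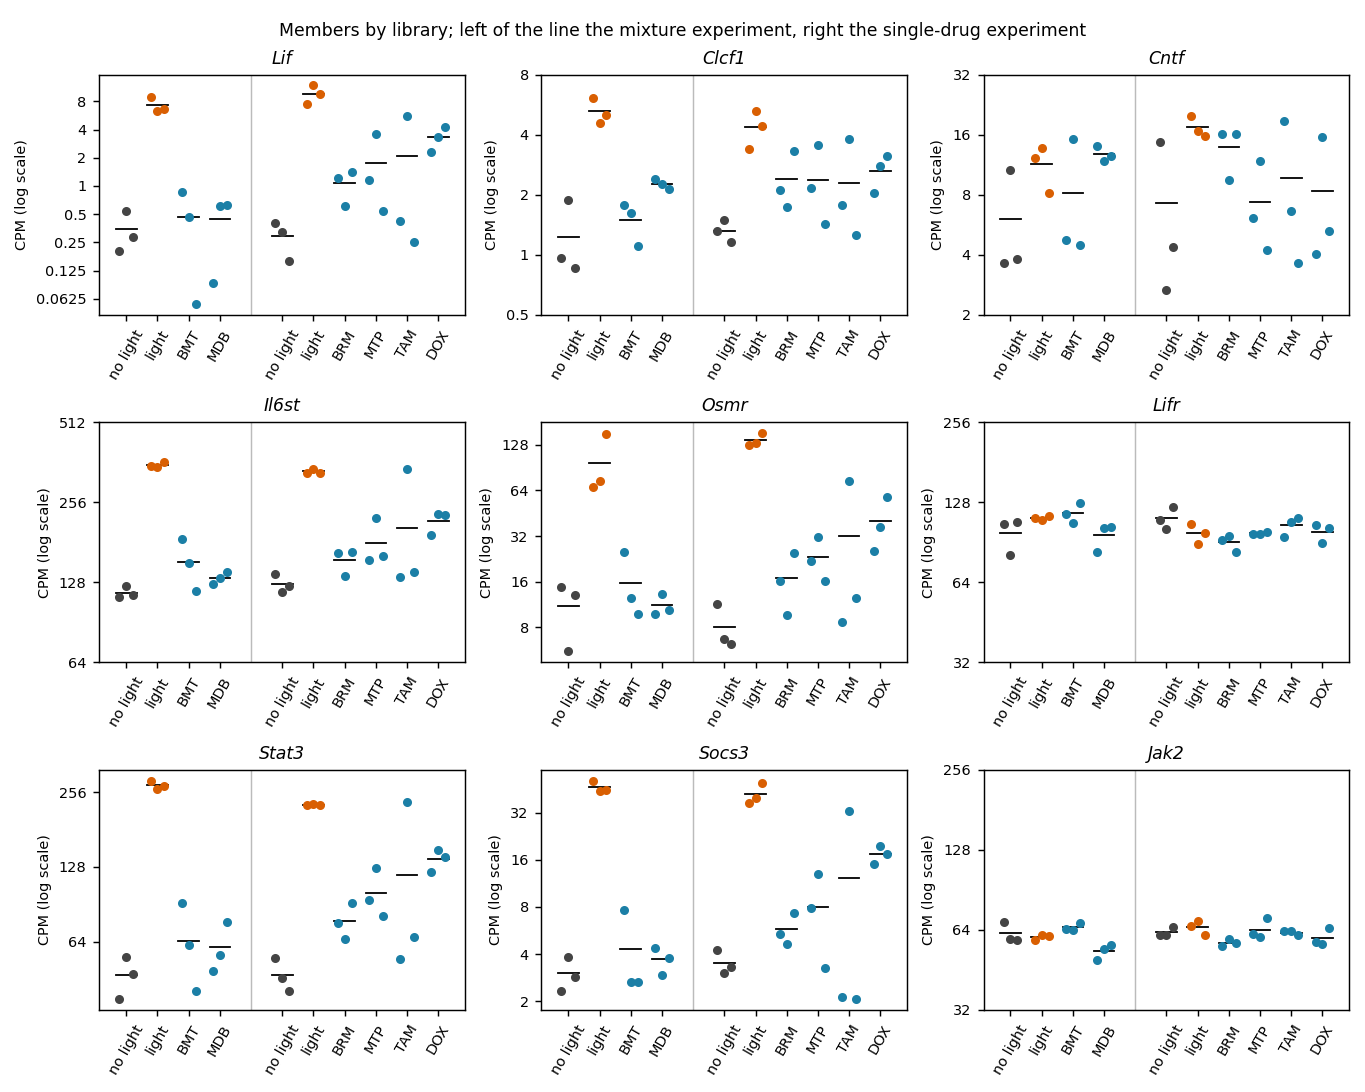
Each panel shows 1 member, with each point a library, horizontal bars the group means, CPM on a logarithmic axis, and the mixture experiment left of the grey line. Lif, Clcf1, Il6st, Osmr, Stat3 and Socs3 are high in the light groups and lower after most drugs, TAM replicate 2 stands near the light libraries for Il6st and Stat3, and Lifr and Jak2 show no such steps, with Jak2 between 49.1 and 70.6 CPM.

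Whether light acted alike in both experiments was tested in a joint fit of all 30 libraries. The difference was called for 0 of 9 members by edgeR, where 0% of all genes were called. At an unadjusted p under 0.05 there was 1 member (Lifr), where 15.1% of all genes were. DESeq2 called 0 of 5 members that have an adjusted p, and limma voom 0 of 9, while over all genes these tools called 416 and 11. Intervals are wide: for Lif the difference was -0.60 (95% interval -3.20 to 2.00), for Osmr -0.96 (-2.64 to 0.71) and for Stat3 0.27 (-0.77 to 1.31). For Lifr it was 0.39 (0.07 to 0.69, adjusted p = 0.223).

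Per length of transcript, the order of the members differed between light and no light. FPKM values per gene, which the authors scaled within each experiment, covered 8 members (Osm and Clcf1 are not in those tables). In no-light libraries of the mixture experiment Il6st was highest at 18.5 ± 0.87 FPKM (SD, n = 3), followed by Jak2 at 13.6 ± 1.19, Lifr at 12.5 ± 2.04 and Stat3 at 11.0 ± 2.16, and these last 3 did not differ beyond their spread. Cntf followed at 6.15 ± 4.05, Osmr at 2.19 ± 0.96, Socs3 at 1.29 ± 0.34 and Lif at 0.0602 ± 0.034 FPKM. With light Stat3 led at 64.6 ± 2.79 FPKM, then Il6st at 55.9 ± 1.98, Socs3 at 20.0 ± 1.64 and Osmr at 19.3 ± 9.25, the last 2 within each other's spread. Lif, the ligand, was the lowest of the 8 in both groups, at 1.63 ± 0.44 FPKM with light. The single-drug experiment also put Stat3 first with light, at 54.2 ± 0.49 FPKM, close to Il6st at 52.9 ± 0.75 FPKM.

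All 6 genes that were higher with light were lower after either mixture than with light alone. The light libraries are the same as in the comparison with no light, so the comparisons are not independent. After BMT, Lif was at 0.863, 0.472 and 0.0552 CPM, Socs3 at 7.63, 2.64 and 2.65 CPM, and Stat3 at 91.6, 62.0 and 40.6 CPM. Il6st was at 187, 151 and 119 CPM, Osmr at 25.1, 12.4 and 9.78 CPM, and Clcf1 at 1.77, 1.61 and 1.11 CPM. BMT replicate 1 was the highest of the 3 for each of these genes, and every BMT library was below every light library. Of 9 tested members 6 were called lower with BMT, where 9.81% of all genes were, and group means came to between 6.33% (Lif) and 43.0% (Il6st) of the light means.

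Among the called members Lif differed most, by -3.93 ± 0.66 (adjusted p = 0.0022), and Il6st least, by -1.22 ± 0.13 (adjusted p = 0.000145). Between them, Socs3 changed by -3.43 ± 0.36, Osmr by -2.63 ± 0.44, Stat3 by -2.08 ± 0.26 and Clcf1 by -1.79 ± 0.30, with adjusted p values of 0.000146, 0.00211, 0.000371 and 0.00201.

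After MDB, Lif was at 0.0923, 0.615 and 0.630 CPM, Socs3 at 4.38, 2.92 and 3.78 CPM, and Stat3 at 49.0, 56.9 and 77.1 CPM. Il6st was at 126, 132 and 140.2 CPM, Osmr at 9.78, 13.2 and 10.4 CPM, and Clcf1 at 2.40, 2.26 and 2.13 CPM. Again all 3 libraries lay below all light libraries for each of the 6 genes, and 6 of 9 members were called lower, where 5.92% of all genes were. Lif changed by -4.03 ± 0.67 (adjusted p = 0.00272), Socs3 by -3.65 ± 0.37 (adjusted p = 0.000112), Osmr by -3.13 ± 0.45 (adjusted p = 0.0011), Stat3 by -2.16 ± 0.26 (adjusted p = 0.000341) and Il6st by -1.41 ± 0.13 (adjusted p = 6.11e-05). Clcf1 changed by -1.20 ± 0.29 (adjusted p = 0.0219), a call lost when light replicate 1 (adjusted p = 0.0965) or MDB replicate 1, 2 or 3 (0.0618, 0.0729 and 0.0804) is left out.

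Jak2 and Lifr were not called with either mixture, although all 3 MDB libraries (49.1, 54.3 and 56.1 CPM of Jak2) were below the light libraries. For Jak2 the change with MDB was -0.18 (interval -0.34 to -0.01, adjusted p = 0.179). Cntf was at 4.72, 15.2 and 4.48 CPM after BMT and 14.0, 11.8 and 12.5 CPM after MDB, overlapping light in both cases. Osm had 0 counts in every library of BMT, MDB and MTP, 1 count in 1 BRM library, and at most 2 counts in any TAM or DOX library.

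After bromocriptine 5 of 9 members were lower than with light alone, where 7.33% of all genes were called lower. Lif was at 1.20, 0.615 and 1.40 CPM, Stat3 at 76.5, 65.4 and 91.6 CPM, and Socs3 at 5.35, 4.64 and 7.37 CPM. Il6st was at 166, 135 and 166 CPM, and Osmr at 16.2, 9.67 and 24.8 CPM. All 3 BRM libraries were below all light libraries for each gene. Lif changed by -3.15 ± 0.84 (adjusted p = 0.022), Osmr by -3.03 ± 0.63 (adjusted p = 0.00659), Socs3 by -2.86 ± 0.76 (adjusted p = 0.0218), Stat3 by -1.55 ± 0.39 (adjusted p = 0.0156) and Il6st by -1.10 ± 0.27 (adjusted p = 0.013). Clcf1, at 2.12, 1.73 and 3.31 CPM, changed by -0.86 ± 0.39 and was not called (adjusted p = 0.152). The number called drops to 1 without light replicate 2 or BRM replicate 2, to 2 without BRM replicate 1 and to 3 without BRM replicate 3, with adjusted p of the lost calls between 0.0528 and 0.0976.

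After metoprolol 2 of 9 members, Osmr and Il6st, were lower than with light alone, where 4.9% of all genes were called lower. Osmr was at 21.8, 31.5 and 16.1 CPM and changed by -2.58 ± 0.62 (adjusted p = 0.0159), and Il6st was at 155, 223 and 161 CPM and changed by -0.89 ± 0.26 (adjusted p = 0.0417). Lif was at 1.16, 3.60 and 0.539 CPM, Socs3 at 7.92, 12.9 and 3.28 CPM, and Stat3 at 94.3, 127 and 81.0 CPM. MTP replicate 2 was the highest of the 3 for each of these genes, and no MTP library reached a light library for any of the 5. Lif, Socs3 and Stat3 missed the threshold, with changes of -2.45, -2.39 and -1.18 (adjusted p = 0.0675, 0.0536 and 0.0632). Leaving out MTP replicate 1 or MTP replicate 3 gives 0 calls, and leaving out TAM replicate 1, 2 or 3, which enter the shared estimate of spread, gives 5. One call remains without no-light replicate 2 or 3, light replicate 1, 2 or 3, BRM replicate 1, 2 or 3, or DOX replicate 3.

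Tamsulosin gave the widest spread. Lif was at 0.423, 5.55 and 0.251 CPM, Socs3 at 2.12, 32.7 and 2.07 CPM, Osmr at 8.72, 74.1 and 12.6 CPM, Stat3 at 54.4, 235 and 66.9 CPM, and Il6st at 134, 341 and 139 CPM. In each case replicate 2 was high and the other 2 were near the no-light libraries. Replicate 2 was at 16.5 times the mean of the other 2 libraries for Lif, 15.6 times for Socs3, 6.97 times for Osmr and 3.87 times for Stat3, and at 102% of the light mean for Il6st and 103% for Stat3. For Lifr and Jak2 the same ratio was 1.05 and 1.02. Its rod sum of 47854 CPM was the lowest of the 3 (53435 and 74545 CPM in the others) but above those of the light libraries (22404 to 31267 CPM). The part of these differences in the result was not tested.

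With all 3 TAM libraries, 1 of 9 members was called lower than light, Osmr, at -2.10 ± 0.61 (adjusted p = 0.0379), where 4% of all genes were called lower. Lif changed by -2.16, Socs3 by -1.74, Stat3 by -0.94, Clcf1 by -0.91 and Il6st by -0.70, with none of these called. Without TAM replicate 2, 6 of 9 were called lower, where 6.79% of all genes were: Lif by -4.85 (adjusted p = 0.000509), Socs3 by -4.32 (4.15e-05), Osmr by -3.69 (0.000109), Stat3 by -1.91 (3.12e-05), Clcf1 by -1.53 (0.0164) and Il6st by -1.28 (5.02e-05). The Osmr call with all libraries is lost without light replicate 1, 2 or 3, BRM replicate 1, MTP replicate 1, TAM replicate 1 or TAM replicate 3. Leaving out TAM replicate 2 also gives 5 of 9 members lower with MTP, where 5.71% of all genes were. Because that library was picked out by high values of these genes, the larger counts without it follow in part from that choice.

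After doxazosin the group means of the 6 light-responsive members were the highest of the single drugs, and 0 of 9 were called lower than light by edgeR, where 5.05% of all genes were. At an unadjusted p under 0.05 there were 2 (Il6st and Osmr), where 28.6% of all genes were in either direction. DESeq2 called 1 and limma voom 3, where these tools called 2756 and 2370 of all 16213 genes in either direction. Lif was at 2.32, 3.33 and 4.24 CPM, Socs3 at 15.0, 19.5 and 17.3 CPM, Osmr at 25.5, 36.6 and 58.0 CPM, Stat3 at 123, 149.6 and 140.2 CPM, and Il6st at 192, 231 and 229 CPM. The DOX libraries lay between the no-light and the light libraries for all 5 genes, with no overlap with either. The changes against light were -1.78 ± 0.60 for Osmr (adjusted p = 0.0648), -1.54 ± 0.77 for Lif, -1.28 ± 0.71 for Socs3, -0.73 ± 0.38 for Stat3 and -0.62 ± 0.26 for Il6st. Without TAM replicate 2, 4 were called lower, where 5.47% of all genes were: Osmr by -1.77 (adjusted p = 0.00564), Socs3 by -1.26 (0.0202), Stat3 by -0.72 (0.0109) and Il6st by -0.61 (0.00621), and without TAM replicate 1 or 3 there was 1.

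**Figure D2:**
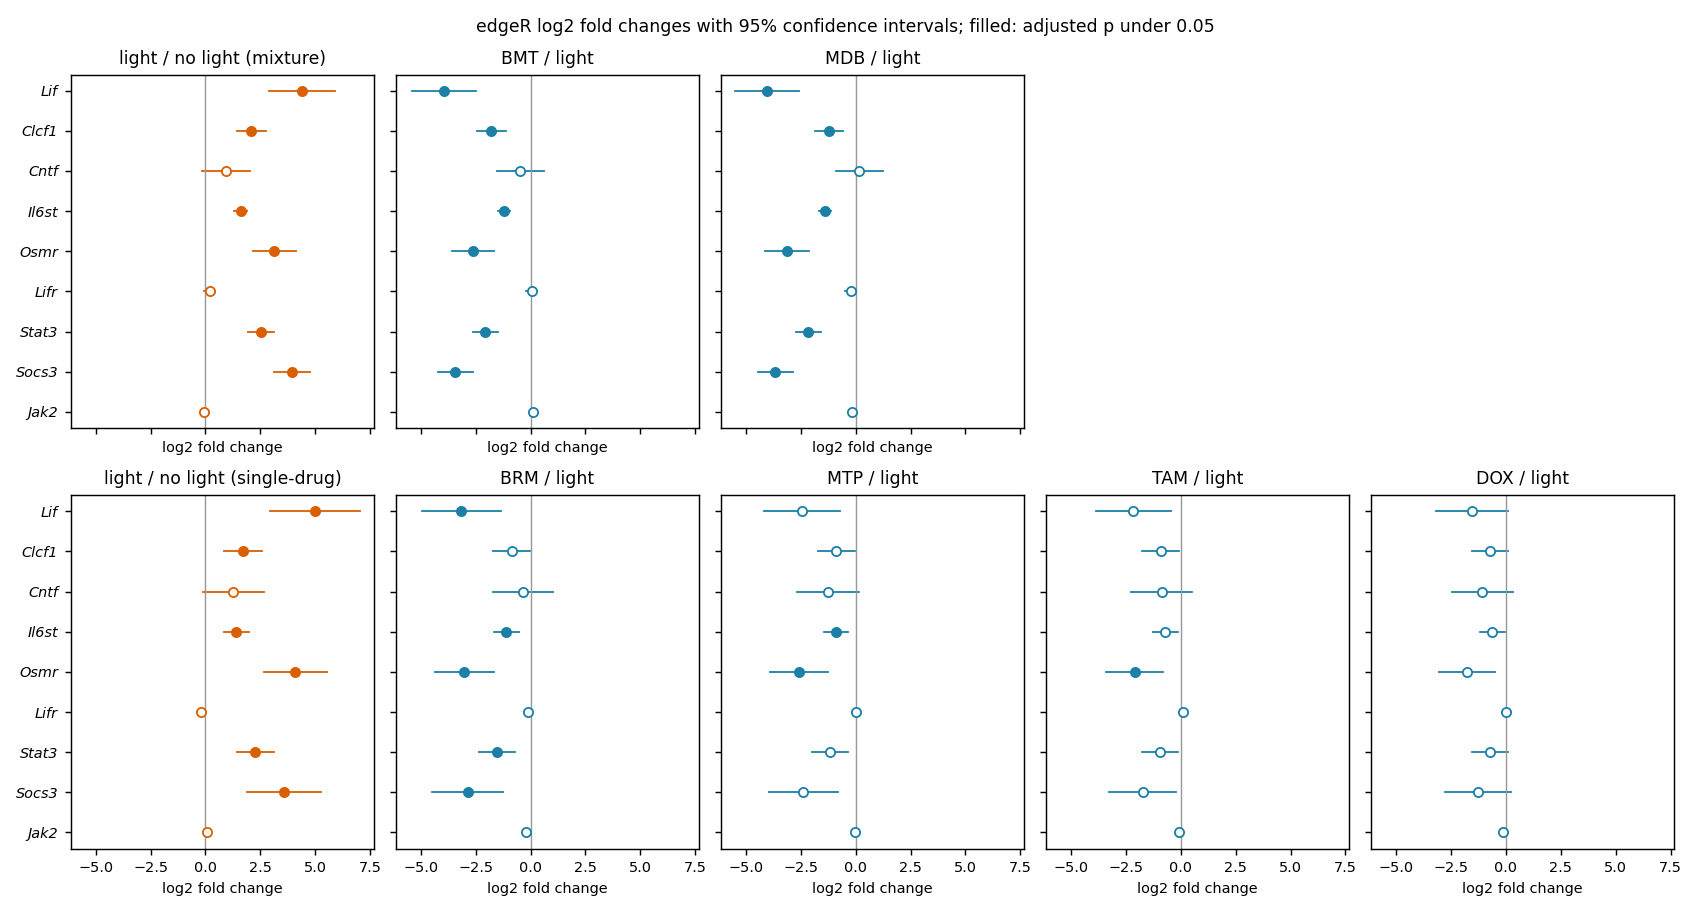
Points give log2 fold changes of each tested member and lines their 95% intervals, filled where called, in the light comparison of each experiment and for each drug or mixture against light. The same 6 members lie to the right in both light panels and to the left with BMT and MDB, and nearest to 0 with DOX.

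Against the no-light libraries of the same experiment, edgeR called 0 of 54 member tests over the 6 drug comparisons, and 0% of all genes in each of them. At an unadjusted p under 0.05 there were 19, where 6.3% to 15.6% of all genes in a comparison were. DESeq2 called 2 of 50 (Lifr lower with BRM and Lif higher with DOX) and limma voom 0 of 54. Over all genes DESeq2 called between 3 and 403 in a comparison and limma voom at most 1. For BMT the differences from no light were 0.46 for Lif (95% interval -1.17 to 2.08), 0.46 for Stat3 (-0.10 to 1.02), 0.51 for Socs3 (-0.30 to 1.33) and 0.38 for Il6st (0.10 to 0.66). MDB differed by 0.35 for Lif (-1.30 to 2.01), 0.38 for Stat3 (-0.18 to 0.94), 0.29 for Socs3 (-0.53 to 1.12) and 0.18 for Il6st (-0.09 to 0.46).

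With DOX the same genes were above no light without overlap, also Clcf1. Lif was higher by 3.45 (interval 1.42 to 5.47, adjusted p = 0.283), Osmr by 2.32 (0.97 to 3.67, adjusted p = 0.283), Socs3 by 2.30 (0.65 to 3.94, adjusted p = 0.286), Stat3 by 1.54 (0.71 to 2.37, adjusted p = 0.283), Clcf1 by 1.00 (0.14 to 1.86, adjusted p = 0.33) and Il6st by 0.78 (0.22 to 1.34, adjusted p = 0.287), none of them called. Without TAM replicate 2, which lies in neither group but enters the shared estimate of spread, 5 of 9 were called higher than no light with DOX, where 0.447% of all genes were. These were Stat3 at 1.55 (adjusted p = 0.00135), Socs3 at 2.30 (0.0115), Il6st at 0.79 (0.0132), Osmr at 2.32 (0.0153) and Lif at 3.45 (0.024). Stat3 with MTP, at 1.10 (adjusted p = 0.0499), was the other member called without that library, where 0.0181% of all genes were higher. The fold changes with DOX hardly moved without that library, which was picked out by the wide spread of these same genes. The larger counts follow in part from that choice, so they are no independent evidence on the members. Fits of only the groups compared, which drop no library of either group, called Lif, Il6st, Stat3 and Socs3 after DOX against no light. The share of all genes called in those fits was not computed.

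Drugs were also compared with each other, in 7 pairs within their own experiment. Of 63 member tests edgeR called 0, with 5 at an unadjusted p under 0.05, where 3.6% to 19.5% of all genes in a pair were. DESeq2 called 1 of 57 and limma voom 0 of 63. Over all genes, 0.111% were called between BRM and TAM and 0% in each other pair, with 1 to 785 genes called by DESeq2 and 0 by limma voom in every pair. The DESeq2 call was Jak2, higher after BMT than after MDB by 0.31 (adjusted p = 0.0126), against 0.30 (interval 0.13 to 0.46, adjusted p = 0.184) in edgeR. BMT and MDB differed by 0.10 for Lif (interval -1.47 to 1.68), 0.22 for Socs3 (-0.58 to 1.02), 0.09 for Stat3 (-0.47 to 0.64) and 0.51 for Osmr (-0.44 to 1.46). Clcf1 was lower after BMT than MDB by -0.59 (-1.24 to 0.07), with no overlap between the libraries.

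With all libraries, bromocriptine and doxazosin were the farthest apart of the single drugs for these genes, with no overlap for Lif, Il6st, Osmr, Stat3 and Socs3. BRM was below DOX by -1.61 for Lif (interval -3.36 to 0.15), -1.58 for Socs3 (-3.15 to 0.00), -1.24 for Osmr (-2.53 to 0.04), -0.82 for Stat3 (-1.63 to -0.01) and -0.48 for Il6st (-1.04 to 0.08), each at an adjusted p of 0.92. TAM and DOX, the 2 alpha-adrenergic blockers, differed by -0.62 for Lif (-2.30 to 1.07), -0.46 for Socs3 (-1.98 to 1.06) and -0.21 for Stat3 (-1.01 to 0.60). Without TAM replicate 2, Socs3 (-3.06, adjusted p = 0.0139) and Stat3 (-1.19, adjusted p = 0.021) were called lower after TAM than after DOX, where 0.205% of all genes were. Those differences are larger than the ones between BRM and DOX without that library, -1.57 for Socs3 and -0.82 for Stat3. TAM replicate 2 was picked out by high values of these same genes, so leaving it out lowers their TAM means. The calls and their order against BRM and DOX therefore do not show a difference between drugs.

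Other genes of the pathway were taken from textbook lists. Of 7 other ligands and soluble partners of the family, 3 passed the filter on low counts and 1 rose in each experiment: Il27, a subunit of interleukin-27, from 0.0165 to 1.18 CPM by group mean in the mixture experiment (a difference of 5.74 ± 0.81, adjusted p = 0.00154) and from 0.0168 to 0.65 CPM in the single-drug experiment (4.84 ± 1.32, adjusted p = 0.0173). Its no-light counts are close to 0, so its fitted fold change is imprecise. It passed the filter through libraries where it is higher, so a rise with light was the only call open to it. Over all genes 7.77% and 11.3% were called higher in the mixture and single-drug experiments, and 1 of 3 is no result about the list. Ctf1 (-0.40, adjusted p = 0.412) and Ebi3 (-0.33, adjusted p = 0.62) were not called in the mixture experiment.

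Of 6 other receptor chains 3 were tested and 1 rose in each experiment, where 7.77% and 11.3% of all genes did. Il6ra, the receptor chain for interleukin-6, was at 0.362 ± 0.039 CPM (SD, n = 3) without and 2.55 ± 0.61 CPM with light in the mixture experiment (2.80 ± 0.33, adjusted p = 0.000228), and changed by 3.38 ± 0.56 (adjusted p = 0.000589) in the other. It was lower than light after all 6 treatments, including DOX (-2.24 ± 0.51, adjusted p = 0.0131). Cntfr, the CNTF receptor subunit, changed by 0.37 (adjusted p = 0.367) and Il11ra1 by 0.12 (adjusted p = 0.659) in the mixture experiment.

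Of 9 other Janus kinases and STATs 8 were tested, and 3 rose in each experiment, where 7.77% and 11.3% of all genes did. Stat2 and Jak3 were among them in both, and the other is not reported here. Stat2 changed by 2.05 ± 0.15 (adjusted p = 1.59e-05) and Jak3 by 4.10 ± 0.46 (adjusted p = 0.000161) in the mixture experiment. Stat2 is also known as a transducer of interferon signals. In the single-drug experiment Tyk2 was in addition lower, by -0.40 ± 0.11 (adjusted p = 0.0187).

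Of 15 other SOCS, PIAS and phosphatase genes, whose products restrain this or related pathways, 5 rose and 1 fell in the mixture experiment. In the single-drug experiment 6 rose and 3 (Pias1, Pias3 and Socs7) fell. Over all genes 7.77% and 11.3% were called higher and 5.47% and 12.6% lower, in the same order of experiments. Pias3, which encodes an inhibitor of STAT3, fell by 0.86 ± 0.08 (adjusted p = 4.39e-05). Cish rose by 2.21 ± 0.22 (adjusted p = 9.22e-05) and Ptpn2, a phosphatase, by 0.60 ± 0.07 (adjusted p = 0.000219). Socs1 (4.23 ± 0.66), Socs2 (1.30 ± 0.35) and Ptpn1 (1.36 ± 0.18) were the other rises in the mixture experiment, with adjusted p of 0.00132, 0.0282 and 0.000442. The medians of this list were 0.08 and 0.06.

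Of 24 genes known as targets of STAT3, all of them tested, 16 rose in the mixture experiment and 17 in the single-drug experiment, where 7.77% and 11.3% of all genes did. None of the 24 fell, and their medians were 2.64 and 2.34 against 0.01 and 0.02 over all genes. The list was chosen with earlier results of these data known, so it is no independent evidence of a direction. Irf1, an interferon regulatory factor, changed by 3.22 ± 0.23, Lcn2, the acute-phase protein lipocalin, by 3.52 ± 0.34, and Cebpd, a transcription factor, by 5.17 ± 0.53 (adjusted p = 1.51e-05, 6.79e-05 and 9.48e-05, mixture experiment). Against light, 18 of the 24 were lower with BMT (and Hif1a higher), 13 with MDB, 13 with BRM, 12 with MTP, 8 with TAM and 4 with DOX (Mcl1, A2m, Lcn2 and Irf1). Over all genes 9.81%, 5.92%, 7.33%, 4.9%, 4% and 5.05% were called lower in that order. The medians of the 24 genes were -2.25, -1.45, -1.96, -1.43, -1.48 and -0.76 in the same order. In TAM replicate 2 the median target was 1.68 above the no-light mean on the log2 scale, against 0.08 and 0.05 in the other TAM libraries, and the DOX libraries were at 1.21, 1.63 and 1.5.

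**Figure D3:**
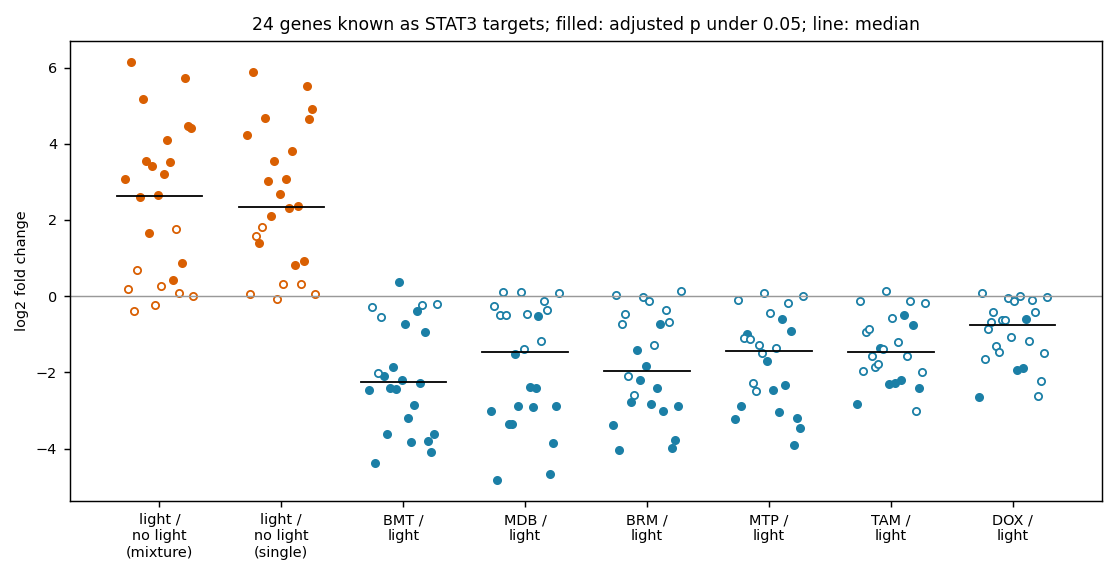
Each point is 1 of 24 genes known as STAT3 targets, with its log2 fold change on the vertical axis in the comparison named below it, filled where called, and the line is the median. Medians are 2.64 and 2.34 with light, and the drug medians against light lie closest to 0 for DOX, at -0.76.

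Some cell markers moved with these groups. Of 8 rod markers, 7 (not Sag) were lower with light in the mixture experiment and 8 in the single-drug experiment, and 7 or 8 were higher than with light alone in each treatment group. Over all genes the share called higher than with light alone was 7.97% after BMT, 3.69% after MDB, 7.04% after BRM, 5.36% after MTP, 6.56% after TAM and 6.73% after DOX. The shares called lower than with light alone were 9.81%, 5.92%, 7.33%, 4.9%, 4% and 5.05% in the same order. With light against no light, 5.47% of all genes were lower and 7.77% higher in the mixture experiment. In the single-drug experiment these shares were 12.6% and 11.3%. Endothelial markers summed to 94.9 to 98.3 CPM without and 185 to 229 CPM with light in the mixture experiment. In the single-drug experiment they summed to 84.4 to 123 against 192 to 312 CPM, with Vwf and Kdr called of 6 in each. Most of the sum was Kdr, at 74.8 to 79.9 CPM without and 160 to 201 CPM with light in the mixture experiment. The median change of the 6 genes was only 0.20 and 0.29, so the sums mainly follow 1 gene. After drugs the endothelial markers summed to 76.9 to 112 CPM in the mixture experiment and 105 to 159.5 CPM in the single-drug experiment. Of the 6, Kdr was called lower than with light alone in all 6 treatment groups and Vwf after BMT and MDB. Müller glia markers went both ways, with Slc1a3 higher and Glul and Rlbp1 lower of 10 in the mixture experiment, and Slc1a3 and Clu higher and Glul lower in the single-drug experiment. Glul was called higher and Slc1a3 lower than with light alone in all 6 treatment groups. Microglia markers summed to 39.0 to 64.0 CPM, with none of 8 called higher with light and P2ry12 lower in both experiments. P2ry12 was called higher than with light alone in all 6 treatment groups, and Tmem119 after BRM and MTP. Markers of infiltrating leukocytes stayed at 1.42 to 6.84 CPM summed, with 3 of 8 testable and none called by edgeR. The part of these cells in the members' changes was not tested.

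Lens fibre genes were uneven within groups, and Cntf was set beside them. A lens score, which averages log2 CPM over 6 genes of lens fibres, ranged from -0.36 to 8.29 over the libraries. In 6 of 10 groups the library with the highest score had the highest Cntf, for example no-light replicate 2 of the mixture experiment, with a score of 8.29 and Cntf at 10.6 CPM against 3.66 and 3.81 CPM in the others. The same held for Lif in 5 of the 10 groups and for Clcf1 in 4, and whether the ligands differ in this was not tested. With the score as a covariate Cntf was called higher with light in both experiments, by 1.35 (adjusted p = 0.0248) and 1.35 (adjusted p = 0.016). When no-light replicate 2 of the mixture experiment is left out the difference was 1.60 (adjusted p = 0.0459), and without no-light replicate 1 of the single-drug experiment 2.32 (adjusted p = 0.029). Each of these libraries had the highest Cntf of its no-light group, so leaving it out enlarges the difference by itself. The fits without these libraries are therefore no support for an effect of light on Cntf. The fits with the score keep all libraries, but the same fits without the score called Cntf in neither experiment (adjusted p = 0.271 and 0.182). Those calls thus depend on the adjustment. The part of lens tissue in the Cntf level was not tested beyond this.

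**Figure D4:**
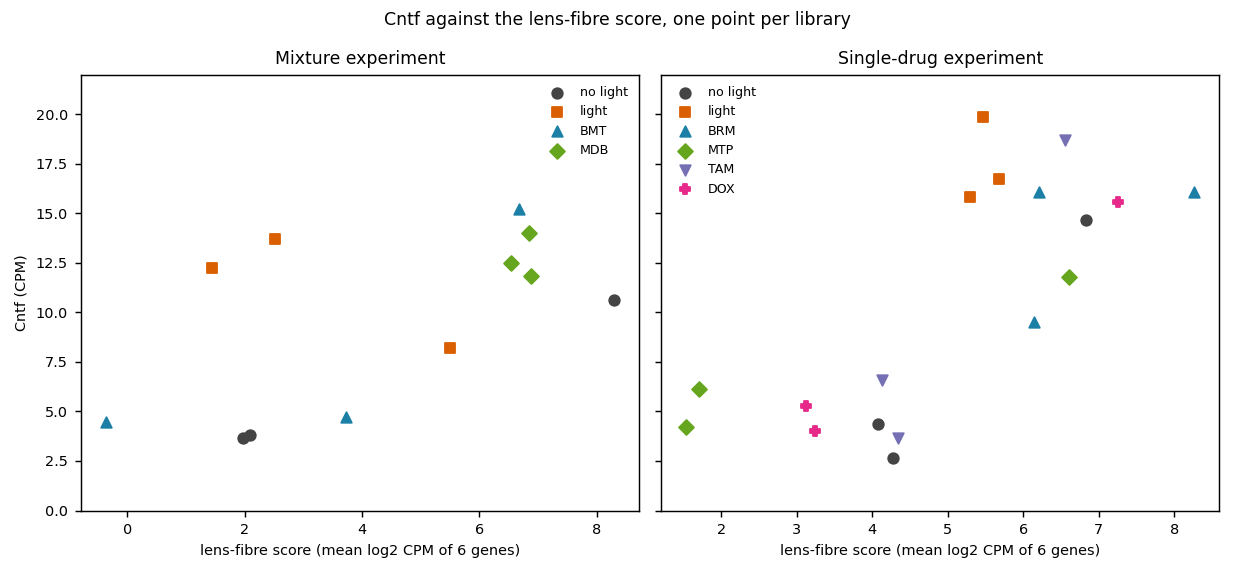
Each point is a library, with its lens score on the horizontal axis and Cntf in CPM on the vertical axis, coloured and shaped by group, in 1 panel for each experiment. Lens scores run from -0.36 to 8.29, and in 6 of 10 groups the library farthest right is also the highest.

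Across the 30 libraries, with each gene centred on its experiment's mean, the 6 responding members had Pearson r of 0.82 to 0.985 with each other, whereas Lifr and Jak2 had 0.5 with each other and -0.23 to 0.18 with the 6. Libraries share groups and sequencing depth, and these values are a description with no test. Of 12981 genes compared, the closest to Stat3 were Klhl29 (r = 0.986), Il6st (0.985) and Myo10 (0.982), and those closest to Il6st were Ipo5 (0.991), Myo10 (0.987) and Stat3. Lif was closest to Tnnt2 (0.969), Lad1 (0.968) and Stat3 (0.965), Socs3 to Tnfrsf12a (0.98), Myo10 (0.977) and Gadd45b (0.973), Osmr to A2m (0.968) and Clcf1 to Csf1 (0.947). Cntf was closest to Pvrl3 (0.969), Lifr to March1 (0.839) and Jak2 to Lancl2 (0.86).

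The authors' deposited tables of changed transcripts hold 521 transcripts for the mixture experiment, with 7 transcripts of 5 members (Lif, Il6st, Osmr, Stat3 and Socs3), and 622 for the single-drug experiment, with 4 transcripts of 4 members (Il6st, Osmr, Stat3 and Socs3). For Socs3-001, the authors' deposited table gives log2 values against light of -3.62 with BMT, -3.68 with MDB and -3.97 with no light. In the authors' deposited table of the single-drug experiment the same transcript is at -2.87 with BRM, -2.67 with MTP, -2.66 with TAM and -1.29 with DOX. These are values of that transcript from the authors' own fit, not the gene-level changes above, which for TAM gave -1.74. The source of that difference was not tested.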

How the data were processed

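The members and all gene lists were chosen with earlier results of these data known, so no list is independent evidence of a direction. Per the submitters' processing notes, the authors used Trimmomatic, Bowtie2, TopHat2, eXpress, edgeR and limma with build GRCm38.p3. For these tools, the sources used here give no version. The authors deposited expected counts per transcript from eXpress, which are fractional and not normalized. They also deposited FPKM values per transcript, scaled by the authors, for protein-coding transcripts past a filter. The authors' deposited tables of changed transcripts give log2 values against light and an adjusted p-value over all groups.

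Expected counts were summed per gene, copies of genes on patch sequences were joined to their primary gene (55 identifiers), and sums were rounded. Genes passing filterByExpr (15969 in the mixture and 16213 in the single-drug experiment) were scaled by TMM and tested two-sided with edgeR 4.0.16 quasi-likelihood fits (R 4.3.3). Each experiment was fitted by itself with its groups sharing one estimate of the spread, because the experiments were performed and analysed separately per the labels. P-values were adjusted by Benjamini-Hochberg over all genes tested. The fit was tested on simulated data. FPKM were summed per gene and tested with limma 3.58.1 on log2(value + 1), with 0.1 as the other pseudocount. Alternatives were DESeq2 1.42.0, limma voom, RLE scaling, no filter, a replicate block, a lens score covariate, only the groups compared, and each library left out. Depth was 12.0 M to 25.8 M counts per library, and limits for a count of 0 cover counting error only.

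All 10 members are described. Of each other pathway list, the 3 genes ranked first by adjusted p in the mixture experiment's light comparison are named, plus called genes where the text counts few of them; some genes of the lists are not reported here. For likeness, the genes with the highest Pearson r to a member were named. Gene coordinates are those in the deposited tables (GRCm38), promoter windows are from RefSeq, and the other Socs3 start is from GENCODE. Stat3 overlaps Stat5a by 72 bases and Clcf1 overlaps Gm26115 by 87 bases, on opposite strands.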

Additional observations from a re-analysis of the deposited data

How the results depend on the processing

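No result changed direction while called. Under every alternative and with each library left out, 5 to 7 members were called with light in each experiment and 5 to 6 with BMT and MDB, where 5 on FPKM are all that these tables allow of the 6. After MTP, 2 were called, but 4 with DESeq2, 5 with limma voom, 4 with the replicate block, 1 with the lens score as a covariate, 5 with only the groups compared, 5 on FPKM with pseudocount 1 and 4 with pseudocount 0.1, and 0 to 5 with 1 library left out. After TAM, 1 was called, but 2 with DESeq2, 5 with limma voom, 0 with only the groups compared, 5 and 4 on FPKM, and 0 to 6 with 1 library left out (6 without TAM replicate 2). After DOX, 0 were called, but 1 with DESeq2, 3 with limma voom, 5 with only the groups compared, 2 on FPKM with pseudocount 1, and 0 to 4 with 1 library left out. After BRM, 5 were called and 1 to 5 with 1 library left out. Against no light, 0 were called, but 2 with DESeq2, 4 with only the groups compared (Lif, Il6st, Stat3 and Socs3 after DOX), and 0 to 6 with 1 library left out. Between drugs, 0 were called, but 1 with DESeq2 and 0 to 2 with 1 library left out. Over all 16213 genes and in either direction, DESeq2 called 2281 after MTP, 2305 after TAM, 2756 after DOX and 2994 after BRM against light. The same counts with limma voom were 1962, 1836, 2370 and 2714. For the other settings, apart from leaving out TAM replicate 2, all genes were not counted. Member counts there only describe how these calls move. The cause of these changes was not tested.

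Replicate numbers did not pair the libraries: deviations of same-numbered libraries had a mean correlation of 0.015 over 18 pairs and -0.002 over 45 pairs. The replicate block changed the count only after MTP, where Lif (-2.69, adjusted p = 0.0414) and Socs3 (-2.55, adjusted p = 0.0433) were then called. FPKM tables lack Osm and Clcf1, and were not used for the difference between experiments, since they were normalized separately. With 3 libraries a group and Lif at 0.0552 to 11.8 CPM, low members such as Osm are limited by depth.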
